A study of Mus musculus with 2 samples.

Results

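The Egr factors, their Nab corepressors, serum response factor (Srf) and the Ier genes were followed on and off polysomes during stress of the endoplasmic reticulum. The cells were NIH3T3, a line of mouse fibroblasts. The members were the 9 genes Egr1, Egr2, Egr3, Nab1, Nab2, Srf, Ier2, Ier3 and Ier5, of 28095 gene names on the array, and they were found by an exact match of the name given to each spot. Stressed cells received 10 µM thapsigargin for 3 h, which blocks calcium uptake into the endoplasmic reticulum, and control cells received none. The study's methods name 4 plates of cells and do not say whether this is per preparation. The medium held 10% serum in each condition, so serum was present throughout and was not the treatment. By the same methods, cells were given cycloheximide shortly before lysis to hold polysomes in place. Lysates were run on sucrose gradients of 10 to 40%. Cy3 marked polysomal RNA (P) while Cy5 marked the combined RNA of free and monosomal fractions (FM). Each condition was read on 1 array with RNA pooled from 3 preparations, so no difference between the conditions could be tested.

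Genes of this group are among the first to be transcribed when a resting cell receives serum or a growth factor. Kinases of the ERK cascade phosphorylate Elk factors, which sit with Srf on a DNA element called the CArG box, and actin-sensing Mrtf cofactors bind Srf at other genes. Egr1, Egr2 and Egr3 are zinc finger transcription factors that bind GC-rich sites, and Nab1 and Nab2 are corepressors that bind Egr proteins and lower their activity. Ier2, Ier3 and Ier5 are immediate early genes, of which Ier3 is known for its part in cell survival. Many mRNAs of such genes are short-lived.

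Values are log2 ratios of P over FM signal (log2 P/FM), the study's measure of translation efficiency, and A, the mean of both log2 signals, its measure of abundance. No normalization was applied, so a share of signal is not a share of molecules. The nearest substitute for a replicate error was the array itself. Over 110 probes printed as 8 or more usable spots, the median SD between spots was 0.10 for log2 P/FM on the control array and 0.10 for its change. Over 3562 genes with at least 2 probes, the median SD between probes of the same gene was 0.30 in control and 0.34 for the change. These cover array error and not the spread between cell preparations, and the number of arrays limits every value. Between 42.5% and 46.3% of the 43379 spots were well above background in a channel, and none was saturated. All 8 fibroblast markers searched (Col1a1, Col1a2, Col3a1, Vim, Fn1, Pdgfrb, S100a4 and Thy1) were well above background in both channels of both arrays, against 1 of 8 markers of other cell types (Cd3e). The leukocyte gene Ptprc and the endothelial gene Pecam were among the 7 others, none of which reached that level in both channels of an array.

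The 9 genes were covered by 12 probes and 21 spots, 1 of which was flagged as an outlier and left out. Changes were compared with 10188 genes whose A exceeded 4.5 on both arrays, and 8 of the 9 members passed this filter. Egr3 did not, and it is described from its signals alone. Across all genes the median change in log2 P/FM was -0.71, the median change in A was 0.39, and the FM signal rose by a median of 0.73 while the P signal moved by 0.03, all on the log2 scale. Equalising the 10 spike-in probes between the arrays, whose own log2 P/FM changed by a median of -2.44, turned the first of these medians to 1.74, so that changes between -2.44 and 0 became positive. By the study's methods, RNA was labelled in the proportions found in each condition. P held more RNA than FM in control cells, and FM more than P under stress, so the measured ratios include this planned difference. Centring on the array medians takes out a shift shared by all genes, and what spike-in scaling does to the planned difference was not tested. Directions below are therefore as measured, and the distance from the median of all genes is given where the direction depends on that scaling.

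Of the 8 genes, 5 were higher by 1 or more in log2 P/FM after thapsigargin (Egr1, Egr2, Ier2, Ier3 and Ier5), where 10.9% of all genes were. By the study's limits 4 of the 8 were inducible (Egr1, Egr2, Ier2 and Ier3), a class that needs a control log2 P/FM of at most 0 and a gain of 1 or more, against 9.59% of all genes. Srf was the member lower by 1 or more, against 40.9% of all genes, a call that 6 of the 16 other settings did not give, and the one that met the limit of -0.8 for sensitive mRNAs, which 47% of all genes met. None was resistant, meaning 0.8 or more on both arrays, as 3.12% of all genes were. A was higher by 1 or more for Egr1, Egr2 and Nab1 (12.3% of all genes) and lower by 1 or more for Ier5 (0.667% of all genes). The median change in log2 P/FM was 2.06 over the 8 genes, against -0.71 over all genes. A lysate of a whole culture cannot tell apart a change in every cell from a larger change in some of them.

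**Figure D1:**
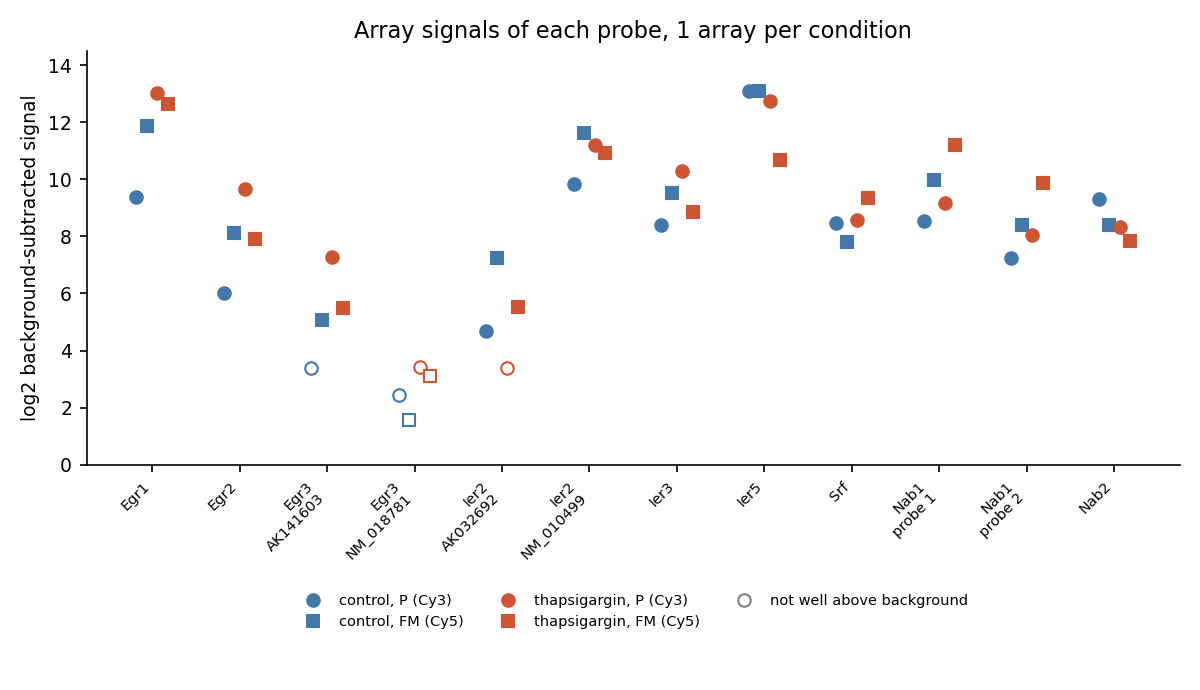
Log2 background-subtracted signals (vertical axis) of each of the 12 probes, with control in blue, thapsigargin in orange, P as circles, FM as squares, and signals not well above background as open symbols; each point is the mean over the spots of a probe on 1 array. The Egr1 and Egr2 P signals rose by 3.65 and 3.63, while the Ier5 FM signal fell by 2.42.

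Egr1 encodes a zinc finger factor induced by growth factors and by many stresses. Its 1 spot read a P signal of 659 in control cells and 8297 after thapsigargin, and an FM signal of 3694 in control cells and 6292 after thapsigargin. Both fractions were thus higher under stress, and the P signal was higher 12.6-fold. The log2 FM change of 0.77 lay 0.04 above the median FM change of all genes, so it was close to the shift of the whole array. The log2 P change of 3.65 lay 3.62 above the median P change. Log2 P/FM went from -2.49 to 0.40, a change of 2.89 that ranked 26 of 10188. In control cells Egr1 had the lowest log2 P/FM of the 8 genes, at position 117 from the lowest of all genes. The change in A was 2.21, or 1.82 above the median of all genes. P took 15.1% of the summed signal in control cells and 56.9% after thapsigargin.

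Egr2, a zinc finger factor of the same family known for its role in myelination and hindbrain patterning, was printed as 10 spots and read at 9. Its mean P signal was 65.3 in control cells and 806 after thapsigargin, while its FM signal was 275 and 241. The P signal was 12.4-fold higher and the FM signal changed by -0.19. Log2 P/FM went from -2.07 ± 0.13 to 1.74 ± 0.09 (SD over 9 spots), and no spot on one array overlapped a spot on the other. The change was 3.81 ± 0.17, with single spots between 3.46 and 4.01, and it ranked 2 of 10188. The change in A was 1.72 ± 0.16 over the same spots. It passed 1 in 13 of 14 other settings and was 0.46 with normexp.

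Egr3 was measured by a pair of probes that read differently. The probe of NM_018781, at chr14:70478827-70478886 on mm9, was well above background in no channel of either array, and so gives no ratio. The probe of AK141603, at chr14:70481979-70482038 and 3092 bases farther along the same strand, read a P signal of 10.4 in control cells, not well above background, and 156 after thapsigargin. Its FM signal was 33.4 in control cells and 45.4 after thapsigargin. Taking the lowest control P signal well above background as a bound, its P signal was at least 11.7-fold higher after thapsigargin and its log2 P/FM rose by at least 3.11. Log2 P/FM of that probe under stress was 1.78. The central 30 bases of both 60-base probes are shown because the readings differ, and the cDNA probe is the more AT-rich of them (35% GC against 55%). RefSeq gives the whole Egr3 gene a length of 5297 bases on GRCm38.p6, and the probes were not aligned to its transcripts.
Egr3 NM_018781 probe: ccaggacaacatcattagcctcatgagtgc
Egr3 AK141603 probe: gtgaactgagagaaaaaatcaggttttaaa

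The Ier genes all had a higher log2 P/FM after thapsigargin, with differing changes of the signals behind it. The Ier2 probe of NM_010499 read a P signal of 905 in control cells and 2341 after thapsigargin, and an FM signal of 3142 and 1939. P was thus higher and FM lower, with log2 P/FM going from -1.80 to 0.27. Its A changed by 0.34, which is 0.06 below the median of all genes and was negative in 3 of 14 other settings. The other Ier2 probe, of the cDNA AK032692, read a P signal of 26.0 in control cells and 10.5, not well above background, under stress. Its FM signal fell from 152 to 46.3, so both fractions were lower and the P signal fell at least 2.34-fold. The probes lie on chromosome 8 of mm9, at chr8:87185211-87185245 and chr8:87183623-87183681 on the minus strand, with 1529 bases between them, and RefSeq gives the whole Ier2 gene a length of 1522 bases on GRCm38.p6. The coordinates of the first probe span only 35 of its 60 bases, and the distance rests on them. The central 30 bases of each 60-base probe are shown because the readings disagree, and the change in log2 P/FM reported for Ier2, 2.07, is that of the first.
Ier2 NM_010499 probe: caaatctgcgcagagttgaagtggctggag
Ier2 AK032692 probe: aagatcattcttaactctatagtttgaagc

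Ier3 read a P signal of 336 in control cells and 1240.25 after thapsigargin. Its FM signal was 731 in control cells and 457 under stress. As with the first Ier2 probe, the P signal was higher and the FM signal lower under stress, and log2 P/FM went from -1.12 to 1.44, a change of 2.56 that ranked 62 of 10188. The change in A was 0.60. A rise of the P signal with a fall of the FM signal was seen for 3 of the 8 genes, Egr2, Ier2 and Ier3, and for 8.88% of all genes, a class added after the values had been seen.

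Ier5 read a P signal of 8826 in control cells and 6896 after thapsigargin. Its FM signal was 8644 in control cells and 1618 under stress. The FM signal was thus 5.34-fold lower, the 5th largest fall of FM among 10188 genes, while the P signal was 1.28-fold lower. Log2 P/FM went from 0.03 to 2.09, and its control value kept Ier5 just outside the inducible class. The change in log2 P/FM was 2.06 and the change in A was -1.39. Few genes combined both: log2 P/FM was higher by 1 or more and A lower by 1 or more for 10 of 10188 genes, or 0.0982%.

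**Figure D2:**
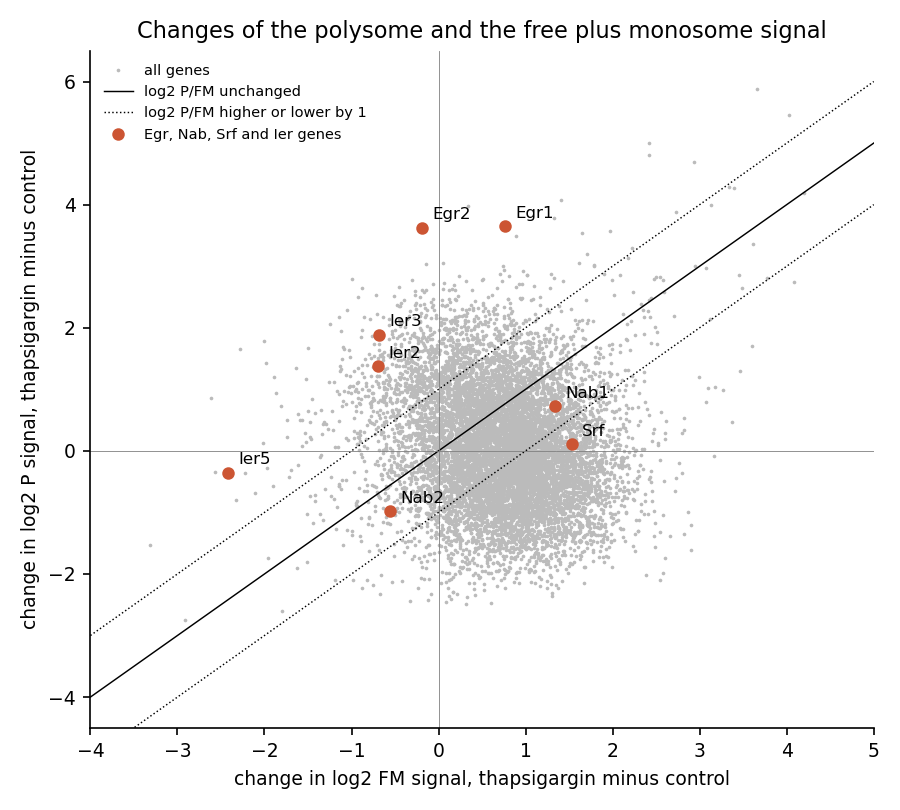
Change of the log2 FM signal (horizontal axis) against change of the log2 P signal (vertical axis), thapsigargin minus control, for 10188 genes in grey and the 8 genes in orange; the solid line marks an unchanged log2 P/FM and the dotted lines a change of 1. Egr1 and Egr2 lie near 3.6 on the vertical axis, Ier2 and Ier3 are higher in P and lower in FM, and Ier5 lies at -2.42 in FM.

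Srf, the factor that binds the CArG box, read a P signal of 349.9 in control cells and 377 after thapsigargin. Its FM signal was 224 in control cells and 649 under stress. The P signal differed little and the FM signal was 2.89-fold higher. Log2 P/FM went from 0.64 to -0.79, a change of -1.43 that turned to 1.02 when the spike-in probes were equalised, and that lay 0.72 below the median of all genes under either scaling. It was between -0.84 and -0.81 with normexp, processed signals, the ratio of Feature Extraction, loess and centred arrays. The change in A was 0.82. The files place only 8 bases of the 60-base Srf probe on 1 stretch of mm9, at chr17:46683788-46683795.

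The corepressor Nab1 was read by a pair of probes. The first gave a P signal of 371 in control cells and 575 after thapsigargin, and an FM signal of 1015 and 2352.5. The second gave a P signal of 149.5 and 264, and an FM signal of 338 and 935. The probes gave like readings, with higher signal in both fractions and more so in FM. Log2 P/FM changed by -0.58 and -0.64, which is 0.10 above the median of all genes when averaged, and A changed by 0.92 and 1.14. Nab2, the other corepressor and itself a reported target of Egr1, went the other way in abundance. Its P signal was 629 in control cells and 319.8 after thapsigargin, and its FM signal was 336 and 229. Log2 P/FM went from 0.91 to 0.48, a change of -0.42 that lay 0.29 above the median of all genes. The signs of the Nab1 and Nab2 changes in log2 P/FM turned positive under 5 of the 16 other settings, which included the spike-in scaling and loess normalization. The change in A of Nab2 was -0.76.

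**Figure D3:**
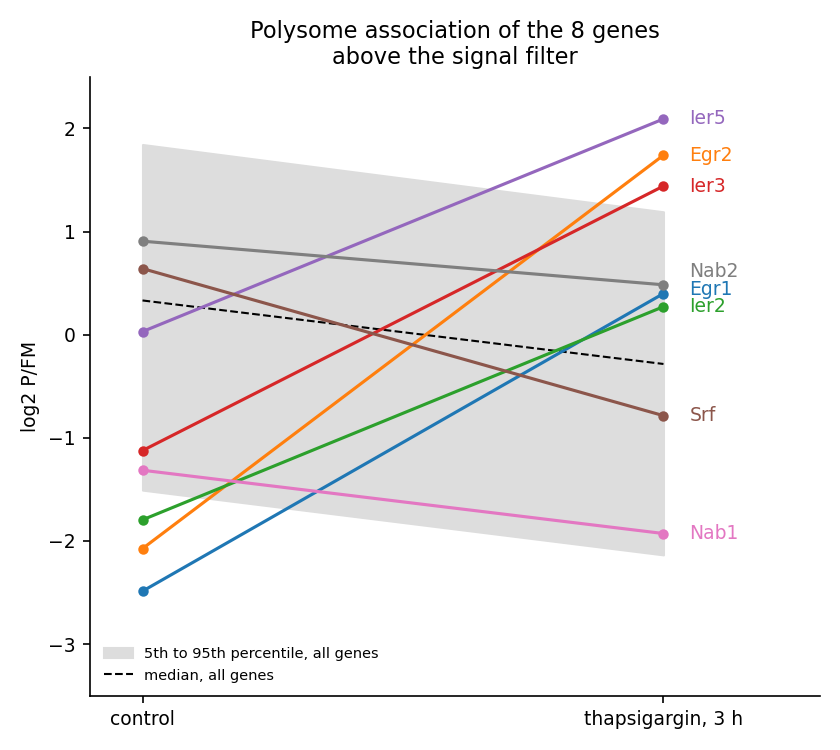
Log2 P/FM (vertical axis) in control cells and after 3 h of thapsigargin for the 8 genes above the filter, 1 array per condition; the dashed line is the median of 10188 genes and the grey band their 5th to 95th percentile. Lines of 5 genes climb by 2.06 to 3.81, against a median line that falls from 0.33 to -0.28.

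The order of the genes changed between the conditions. In control cells log2 P/FM rose from Egr1 (-2.49) over Egr2, Ier2, Nab1, Ier3, Ier5 and Srf to Nab2 (0.91). The neighbours Egr2 and Ier2, Nab1 and Ier3, and Srf and Nab2 were less than the between-probe SD of 0.30 apart. Under thapsigargin the order was Nab1 (-1.93), Srf, Ier2, Egr1, Nab2, Ier3, Egr2 and Ier5 (2.09), and Ier2, Egr1 and Nab2 followed each other at steps below the between-probe SD of 0.28. In the change itself Ier5 and Ier2 differed by 0.01, while Egr2 stood 0.93 above Egr1, an order that turned in 4 of the 16 other settings (normexp, processed signals, the ratio of Feature Extraction and loess).

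The genes whose 4 log2 signals lay closest to those of Egr1 and Egr2 were sought among 13526 probes of coding accessions that were well above background throughout. The measure was the Euclidean distance over P and FM on both arrays, which also reads probe brightness. Closest to Egr1 was the zinc finger factor Klf6 at 1.49, followed by Serp1, an endoplasmic reticulum membrane protein, at 1.57 and the stress-induced Nupr1 at 1.62. Closest to Egr2 was Ptgs2, which encodes an inducible cyclooxygenase, at 0.49, then Rev3l, the catalytic subunit of a DNA polymerase, at 0.71.

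Other immediate early genes, a list of 51 of which 44 passed the filter, held 22 that were higher by 1 or more in log2 P/FM and 3 that were lower. These counts were 32 and 0 with processed signals, 33 and 0 with loess, and 43 and 0 after spike-in scaling. Of all genes, 10.9% were higher and 40.9% lower as reported. In those settings 17%, 17.2% and 72.8% of all genes were higher, and 27.1%, 21.2% and 0.442% lower. The inducible class took 21 of the 44, or 47.7%, and the median change in log2 P/FM was 1.02, which was 1.73 above the median of all genes. A was higher by 1 or more for 21 and lower by 1 or more for 4. Ptgs2 had the largest change in log2 P/FM, 3.64, and the nuclear receptor gene Nr4a1 the largest change in A, 4.77. Fos, the partner of Jun in the AP-1 factor, had a control P signal that was not well above background. Its log2 P/FM rose by 3.32 with that signal taken as read. Lowest in log2 P/FM was Jund (-2.02), followed by Ier5l (-1.41) and Klf2 (-1.23), whose 2 probes disagreed (SD 2.96). The other Jun genes differed from Jund, with changes of 2.23 for Jun and 1.76 for Junb.

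The class of Egr1 and Egr2, inducible with A higher by 1 or more, held 2.66% of all genes and 7 of the other immediate early genes. These were Ptgs2, Nr4a1, Nr4a2, Phlda1, the growth factor gene Hbegf, Junb and Klf6, with changes in log2 P/FM from 1.43 (Nr4a2) to 3.64 (Ptgs2). In Nr4a1 the change in A (4.77) exceeded the change in log2 P/FM (2.22), whereas in Egr2 the order was the reverse, at 1.72 and 3.81.

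The combination seen in Ier5 was shared by 4 of the other immediate early genes, which were singled out after their values had been seen. They were the kinase gene Sgk1, the matrix protein gene Ccn1 (Cyr61 on the array), Jun and the phosphatase gene Dusp1. Their changes in A ran from -2.42 (Sgk1) to -1.40 (Dusp1), and their changes in log2 P/FM from 1.43 (Dusp1) to 2.23 (Jun). In each the P signal was lower as well, by 0.34 for Jun up to 1.53 for Sgk1, and the FM signal fell by 2.11 to 3.32 on the log2 scale. With Ier5 they made up 5 of the 10 such genes on the array.

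**Figure D4:**
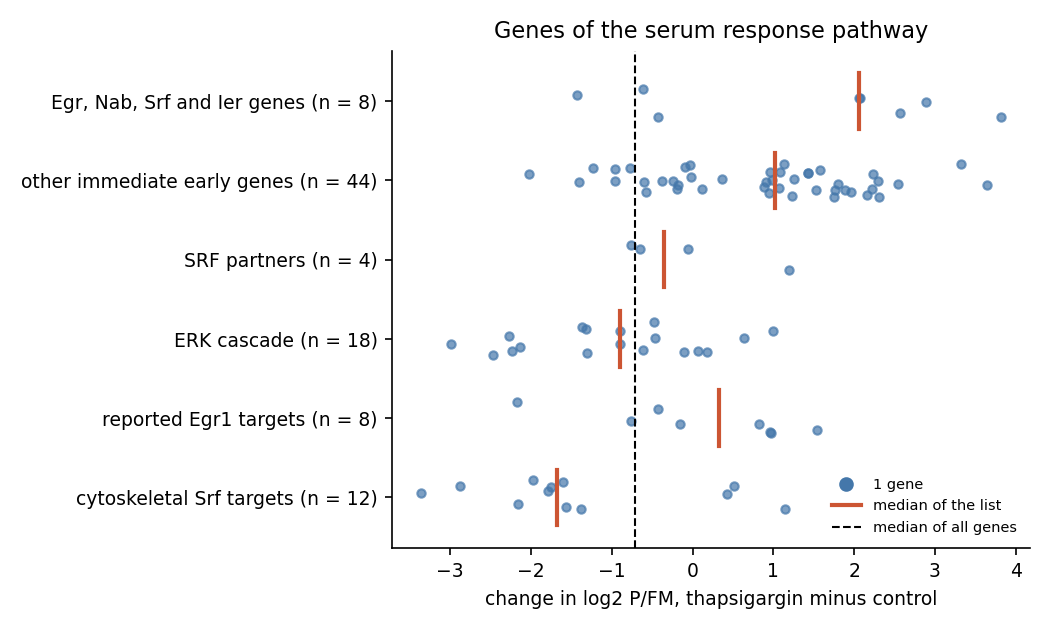
Change in log2 P/FM (horizontal axis), thapsigargin minus control, of each measured gene of 6 lists (rows, with n), with list medians in orange and the median of 10188 genes dashed. Immediate early genes spread from -2.02 to 3.64 with a median of 1.02, and 9 of 12 cytoskeletal Srf targets lie at -1 or lower.

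Upstream of the group, 18 of 19 genes of the ERK cascade passed the filter. None was higher by 1 or more in log2 P/FM and 8 were lower, or 44.4% beside 40.9% of all genes, with a median change of -0.90 that lay 0.19 below the median of all genes and turned to 1.55 after spike-in scaling. The kinase gene Map2k2 was the lowest at -3.00 and the exchange factor gene Sos2 the highest at 1.00, just under the limit. Sos2 also had the largest change in A, 1.02, and Hras the lowest, -0.50. Of 7 Srf partners 4 passed the filter. The ternary complex factor gene Elk4 alone was higher by 1 or more in log2 P/FM, going from -0.14 to 1.06, beside 10.9% of all genes. No partner was higher by 1 or more without background subtraction, without a filter on A or in the authors' own ratios. With a filter of 5.5 on A, Elk4 dropped out. Fhl2 was the lowest of the 4 with a change of -0.76. Mrtfa (Mkl1 on the array) had the largest change in A, 2.32, with a change of -0.06 in log2 P/FM.

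Downstream, the cytoskeletal targets of Srf and the reported targets of Egr1 differed. Of 12 measured cytoskeletal genes 9 were lower by 1 or more in log2 P/FM, or 75% beside 40.9% of all genes. The count was 6 after centring on the array medians, 3 after loess and 0 after spike-in scaling. In those settings 22.4%, 21.2% and 0.442% of all genes were lower by 1 or more. The median change of the 12 was -1.68, which lay 0.97 below the median of all genes. It stayed below that median in the 15 other settings tried. The actin-binding protein gene Cnn2 was the lowest at -3.36, and Vcl, which encodes vinculin, was the highest at 1.15, with 2 probes that disagreed (SD 1.33). In A, the change was highest for Tln1 (1.00) and lowest for Myl9 (-0.75). Of 8 measured targets of Egr1, 1 was lower by 1 or more in log2 P/FM (Tgfb1, -2.17). Their median change was 0.33, or 1.04 above the median of all genes. Vegfa had the largest change in A of this list, 1.25, and Nab2 the lowest.

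Promoter sequence was at hand for 6 of the 9 genes (Egr2, Ier3, Ier5, Nab1, Nab2 and Srf). Egr1, Egr3 and Ier2 were not searched, so nothing is known here of motifs in their promoters. The sequence came as RefSeq windows of 250 bases before to 50 after each start on GRCm38.p6, and both strands were searched. A CArG box was found in the windows of 2 of the 6 genes, Egr2 and Srf, and in those of 1.81% of all 27025 genes. The boxes are shown in capitals because Egr2 and Srf, the factor known to bind this element, differed in their change in log2 P/FM. Egr2 carried a box in 4 of the windows of its 5 starts. These are 2 different boxes, within the printed bases at chr10:67537484-67537513 and chr10:67537787-67537816 on the plus strand. Srf carried a pair of boxes within 30 bases, at chr17:46556215-46556244 on the minus strand. The labels first and later below count only the 4 starts of Egr2 whose windows held a box.
Egr2, first start: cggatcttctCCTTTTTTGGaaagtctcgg
Egr2, later starts: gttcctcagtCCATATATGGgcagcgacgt
Srf: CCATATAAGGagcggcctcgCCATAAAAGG

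The Egr site was searched as the exact letters GCGGGGGCG, and no other form of it was sought. These letters were found in the windows of Srf and Nab1, the gene of an Egr corepressor, and in those of 3.31% of all genes. No window of the 6 genes held the cyclic AMP response element TGACGTCA, which 2.03% of all genes held in theirs. The Egr site of Srf starts 101 bases before the start of the gene, within chr17:46556245-46556274 on the minus strand and next to its CArG boxes, and that of Nab1 starts 38 bases before, within chr1:52500468-52500497 on the minus strand. Capitals mark the site, and a match is a description of the letters, not of binding.
Srf: ggaccaatgggGCGGGGGCGctggggctcg
Nab1: cgcggggcgggGCGGGGGCGgcggaggtgg

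The pentamer ATTTA, the core of the AU-rich elements that mark short-lived mRNAs, was counted on the printed strand of the probes. It was in 3 of the 12 probes, or 25%, and in 7.58% of 26746 probes of coding accessions. The Ier3 and Nab2 probes held 2 copies each, and the 30 bases around them are shown with the pentamer in capitals. Of these genes Ier3 was the one that changed by 2.56 in log2 P/FM, and Nab2 changed by -0.42.
Ier3, chr17:35959528-35959587 on mm9: acacagatATTTAttacgATTTAtagggtc
Nab2, chr10:127097981-127098040 on mm9: ATTTAttttgttattttggaataaaATTTA

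**Figure D5:**
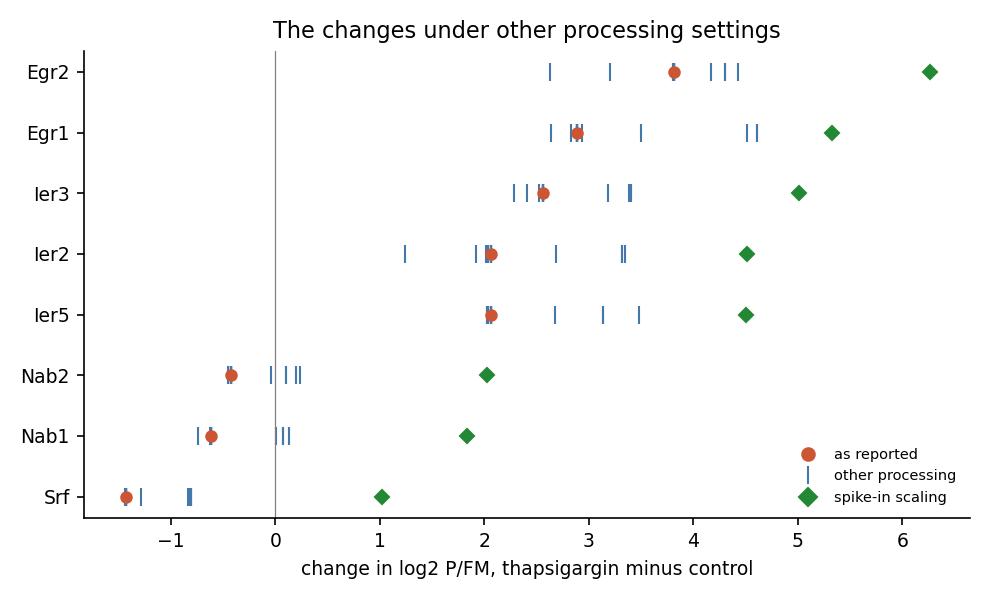
Change in log2 P/FM (horizontal axis), thapsigargin minus control, of each of the 8 genes (rows) as reported in orange, under the other processing settings as blue ticks, and after spike-in scaling in green. The 5 genes that were higher stayed above 1 in every setting drawn, and Srf changed sign with the spike-in scaling alone.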

How the data were processed

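Spot and background intensity values were deposited as Agilent Feature Extraction 10.7.1.1 output, not normalized per the file headers. The deposited files also hold processed intensity values, a log10 ratio of Cy5 to Cy3, and 0 or 1 flags. The authors further deposited log2 ratios of Cy3 to Cy5, which equalled the accession means computed here for 100% of 11483 rows within 0.001.

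Median local background was subtracted from mean signal with a floor of 0.5, as one option of limma 3.58.1 does, and log2 P/FM was left without normalization, after the study's methods. Spots flagged as outliers on either array (295 of 43379) were left out. Spots were averaged per probe and probes with A above 4.5 on both arrays per gene. The comparison covered genes with an NM accession. A signal not well above background gives a bound, set by the lowest signal above the floor among spots well above background. Where the signal itself was higher than that, as for Fos, it was used as read. The lowest signal is thus no sharp limit of detection. No test was possible with 1 array per condition. The steps were tested on simulated data. Probe positions are those of the files (mm9).

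The members, lists and limits were chosen with earlier results of these data known. The genes named from the lists had the highest or lowest change in log2 P/FM or A of those well above background, or shared the class of Egr1 or Egr2, and a few genes that this rule or the likeness measure names are not reported here. The 16 alternatives set beforehand covered background correction, scaling, filters and the unit.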

Additional observations from a re-analysis of the deposited data

How the results depend on the processing

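The count of 5 genes higher by 1 or more in log2 P/FM held in 14 of 16 settings. It was 6 without a filter on A, where Egr3 entered, and 8 after spike-in scaling, where 72.8% of all genes were higher by 1 or more. Without the filter, Egr3 was the mean of both its probes, including that of NM_018781, which was well above background in no channel. Ier2 then included its second probe, and its change was 1.24 in place of 2.07. Spike-in scaling also left 0 sensitive genes, with 0.442% of all genes lower by 1 or more, and turned the Srf change from -1.43 to 1.02. The median change in log2 P/FM over the 8 genes (2.06) was 3.23 with processed signals and with the ratio that Feature Extraction gives. It was 3.37 with loess, 2.68 with centred arrays, 4.51 after spike-in scaling and 1.44 over 9 genes without a filter on A. The median change in A (0.71) was 0.19 with normexp, 0.38 with processed signals, 0.22 after centring and 1.00 after spike-in scaling. The count of genes with A higher by 1 or more (3) held in 8 of 14 settings and ranged from 1 to 4. It was 1 with normexp, where Egr1 alone passed 1 and the change in A of Egr2 was 0.46. The count of genes lower (1) was 2 with normexp, with processed signals and after centring, where Nab2 joined Ier5. Nab1, with a change in A of 1.03, passed 1 in 10 of 14 settings. The cause of these shifts was not tested. Relative to the median of all genes, Srf stayed between -0.79 and -0.42, Egr2 between 2.67 and 4.82 and Egr1 between 2.69 and 4.89. The count of inducible genes ranged from 4 to 5. With log2 of the summed signals in place of A, an alternative chosen after seeing the data, Egr1 changed by 1.74, and A is a mean of logs that P and FM enter equally. No paired analysis was possible because each condition has 1 array, and no replicate could be left out. Depth on an array is signal over background, and it limits Egr3 and the second Ier2 probe.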
